A study of Mus musculus with 87 samples.

Results

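The 7 genes Prkcd, Shox2, Ramp3, Rora, Tcf7l2, Lef1 and Rgs16 are known as genes of the mouse thalamus, and they were followed here in arrays labelled as bed nucleus of the stria terminalis. All probe sets annotated to 1 of these genes alone were taken, which gave 13 of the 12422 probe sets on the array that are not controls (2 each for 6 genes and 1 for Ramp3). The 8251 genes read by a probe set of their own include these 7. The genes were chosen by their measured intensity in the bed nucleus arrays against the other regions. Their levels there are therefore a description, with no test, and tests were made only of strain, of pool size, of covariation between arrays and of differences between regions other than the bed nucleus.

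The series holds 87 Affymetrix MG_U74Av2 arrays of male wild type mice of 8 weeks, untreated as far as the labels say, of 6 inbred strains (C57BL/6J, FVB/NJ, C3H/HeJ, A/J, 129S6/SvEvTac and DBA/2J). The brain regions bed nucleus, hippocampus, hypothalamus, periaqueductal gray, amygdala and cingulate cortex and the pituitary gland were dissected, with 12 or 13 arrays a region and 2 or 3 arrays for each of 42 groups of strain and region. Each of the 13 bed nucleus arrays held RNA pooled from 2 mice (7 arrays) or 3 mice (6 arrays), against 1 or 2 mice an array in the other brain regions and 5 in the pituitary gland. Amygdala and cingulate cortex RNA was labelled in 2 rounds from 50 ng, other RNA in 1 round from 10 µg, so levels are compared by test only within a protocol. In FVB/NJ, the scan files of both bed nucleus arrays named the same animals although the labels give 2 and 3 mice. Replicates of a strain were separate pools by their labels, but what the p-values measure is the spread of these samples alone, some of which may be technical. Array medians ran from an intensity of 42.6 to 66.1 and upper quartiles from 165 to 185. No array of thalamus was analysed here.

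The bed nucleus of the stria terminalis is a small group of mostly GABA-releasing neurons in the basal forebrain, and it lies beside the front end of the thalamus. The thalamus relays sensory and motor signals to the cortex, mostly through glutamate-releasing neurons, and the transcription factors Tcf7l2, Lef1, Shox2 and Rora help to set up or maintain these cells. Tcf7l2 and Lef1 act at the end of the Wnt pathway, where they bind beta-catenin. Several of the 7 genes are used elsewhere too: Prkcd marks neurons of the central amygdala and of the bed nucleus itself, Shox2 and Tcf7l2 are active in midbrain, and Rgs16 is known from the clock neurons of the hypothalamus.

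Upstream sequences of 4 of the genes are shown because Prkcd, Ramp3 and Rora followed each other most closely from array to array, and because Shox2 had the largest of the tested differences among the other regions. Each is the 250 bases before a transcription start from RefSeq (build GRCm38.p6), written 5′ to 3′ on the gene's own strand, with matches to the TCF/LEF core CTTTGA or CTTTGT on either strand in capitals (TCAAAG or ACAAAG on the other strand).
Prkcd (chr14:30626209-30626458, minus strand): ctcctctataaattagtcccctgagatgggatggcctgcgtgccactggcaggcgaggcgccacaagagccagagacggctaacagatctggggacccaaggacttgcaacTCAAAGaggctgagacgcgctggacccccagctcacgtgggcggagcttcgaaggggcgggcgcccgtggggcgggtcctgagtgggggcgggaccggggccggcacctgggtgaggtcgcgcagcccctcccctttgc
Shox2 (chr3:66981772-66982021, minus strand): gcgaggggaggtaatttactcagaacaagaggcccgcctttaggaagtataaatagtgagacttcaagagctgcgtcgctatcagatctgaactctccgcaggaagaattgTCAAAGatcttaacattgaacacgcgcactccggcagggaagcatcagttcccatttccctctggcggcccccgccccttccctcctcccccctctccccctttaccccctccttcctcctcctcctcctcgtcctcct
Ramp3 (chr11:6658283-6658532, plus strand): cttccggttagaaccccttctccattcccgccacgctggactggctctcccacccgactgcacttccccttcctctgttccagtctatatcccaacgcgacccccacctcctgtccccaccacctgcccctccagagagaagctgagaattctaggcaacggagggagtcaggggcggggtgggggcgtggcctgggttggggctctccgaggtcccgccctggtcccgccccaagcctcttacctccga
Rora (chr9:68653536-68653785, plus strand): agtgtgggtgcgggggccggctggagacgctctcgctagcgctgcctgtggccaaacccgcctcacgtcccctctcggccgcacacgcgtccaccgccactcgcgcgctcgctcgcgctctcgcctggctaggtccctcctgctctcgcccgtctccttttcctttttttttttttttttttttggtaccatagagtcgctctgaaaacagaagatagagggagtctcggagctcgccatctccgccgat
The Prkcd and Shox2 windows each hold 1 such match, and the Ramp3 and Rora windows hold none. RefSeq gives 12 start sites for the 7 genes, and 5 of these 12 windows (of Prkcd, Shox2, Lef1 and Tcf7l2) hold CTTTGA or CTTTGT, against 27.6% of all 32851 windows in the table. Neither the receptor half-site AGGTCA, which RORA binds (14.02% of all windows), nor the homeodomain core TAATTA (4.84%) was found in any of the 12. A match is a string of letters and no evidence of binding, and a window without one says nothing about the factor.

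All values below are intensities as deposited, some of which are below 0. Differences are on the scale log2(intensity + 16) with values below 0 set to 0, which understates the ratio for dim probe sets. In every one of the 13 probe sets the median over the bed nucleus arrays was higher than the median of each other region. The ranges of 5 probe sets (both of Prkcd, 99043_s_at of Shox2, 92368_at of Ramp3 and 101889_s_at of Rora) did not overlap with any other region, and those of the other 8 overlapped with at least 1 region. Medians and ranges were not compared in this way over all probe sets. The genes were chosen by these levels, so nothing is read from either count. Over all 8460 probe sets tested, 7.52% were called higher in the bed nucleus than in the mean of the hippocampus, hypothalamus and periaqueductal gray (the other brain regions labelled in 1 round), and 7.4% lower, at an adjusted p below 0.05 in limma. Nothing is read from this share for the 7 genes, which were selected on that contrast. More cells of a type and more RNA per cell cannot be told apart in such bulk samples.

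Prkcd (chr14:30595353-30626414 in GRCm38.p6) encodes protein kinase C delta, a lipid-activated kinase. Its probe set 104531_at read 679 at the lowest, 1347 at the median and 2576 at the highest bed nucleus array, and 160698_s_at read 840.0, 1454 and 2819. In the other 6 regions the medians of 104531_at lay between 76.9 (cingulate cortex) and 146 (hippocampus), and no array exceeded 197. On the log2 scale the bed nucleus stood 3.39 above the mean of the 3 other brain regions for 104531_at and 2.49 for 160698_s_at, which read medians of 153 to 323 in the other regions. Below the bed nucleus, the order of medians of 160698_s_at was hippocampus, amygdala, hypothalamus, periaqueductal gray, cingulate cortex and pituitary gland, and the ranges of each neighbouring pair overlapped.

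Ramp3 (chr11:6658506-6677478) encodes an accessory protein that sets which peptides the calcitonin-family receptors bind. Its probe set 92368_at read 227 at the lowest, 340 at the median and 725 at the highest bed nucleus array. The next region was the cingulate cortex with a median of 86.0 and a highest array of 103, and the other medians lay between 37.7 and 52.4. The difference from the 3 other brain regions was 2.68.

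Rgs16 (chr1:153740353-153745468) encodes a protein that speeds up the switching off of G protein signals. Probe set 94378_at read 430 at the lowest, 604 at the median and 1102 at the highest bed nucleus array. Rgs16 was also read clearly in other regions: the pituitary gland had a median of 359 and a highest array of 585, and 4 of its 12 arrays were at or above the lowest bed nucleus array. The hypothalamus followed with a median of 316 and a highest array of 411, just under the lowest bed nucleus array. The second probe set, 161609_at, was dimmer (61.7, 84.6 and 130 in the bed nucleus) and overlapped only with 1 of the 13 amygdala arrays. Both probe sets stood at a similar distance from the 3 other brain regions (1.59 and 1.55).

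Shox2 (chr3:66971723-66981771) encodes a homeodomain transcription factor. Probe set 99042_s_at read 427 at the lowest, 660 at the median and 822 at the highest bed nucleus array. The periaqueductal gray came second with 210, 272 and 432, so that 1 of its 12 arrays reached the lowest bed nucleus array. The pituitary gland had a median of 86.8, and the 4 remaining regions had medians of 16.7 to 19.9, near background. The second probe set, 99043_s_at, gave the same order at the top, with medians of 98.5 in the bed nucleus and 37.1 in the periaqueductal gray, while 6 or more arrays were below 0 in each of the 5 remaining regions. The differences from the 3 other brain regions, 3.24 and 2.27, depend on the added 16 because 2 of these regions are near background.

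Rora (chr9:68653404-69388246) encodes a nuclear receptor. Probe set 101889_s_at read 309 at the lowest, 472 at the median and 823 at the highest bed nucleus array, above every array of the other regions. Its next medians were 135 in the pituitary gland and 125 in the periaqueductal gray, and the lowest was 42.1 in the amygdala. The other Rora probe set, 101888_at, was near background in all regions, with bed nucleus values of -4.36 to 19. It was the only 1 of the 13 that did not reach the level needed for a test, a highest group mean above an intensity of 55.4, and it showed no separation of regions.

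Tcf7l2 (chr19:55741797-55933659) and Lef1 (chr3:131110297-131224357) encode the TCF/LEF factors of the set. Tcf7l2 probe set 102241_f_at read 147 at the lowest, 178 at the median and 267 at the highest bed nucleus array. The periaqueductal gray overlapped with it widely (75.8, 153 and 239), and 6 of its 12 arrays were at or above the lowest bed nucleus array, while the other medians were 44.5 to 61.6. The suffix of this probe set marks probes shared within a sequence family, so it may also read related transcripts. The second Tcf7l2 probe set, 97660_s_at, lay around background, at -11.4 to 123 in the bed nucleus with 4 of 13 arrays below 0, and all arrays of the hippocampus, amygdala, cingulate cortex and pituitary gland were below 0. Lef1 probe set 103628_at read 160 at the lowest, 256 at the median and 397 at the highest bed nucleus array, and the next medians were 115 (periaqueductal gray, 1 of 12 arrays overlapping) and 114 (hypothalamus). The second Lef1 probe set, 103629_g_at, disagreed for the regions labelled in 2 rounds: its median was 122 in the bed nucleus and 112 in the amygdala, and 12 of the 13 amygdala arrays overlapped with the bed nucleus, where 103628_at had an amygdala median of 67.8 and no overlap.

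**Figure D1:**
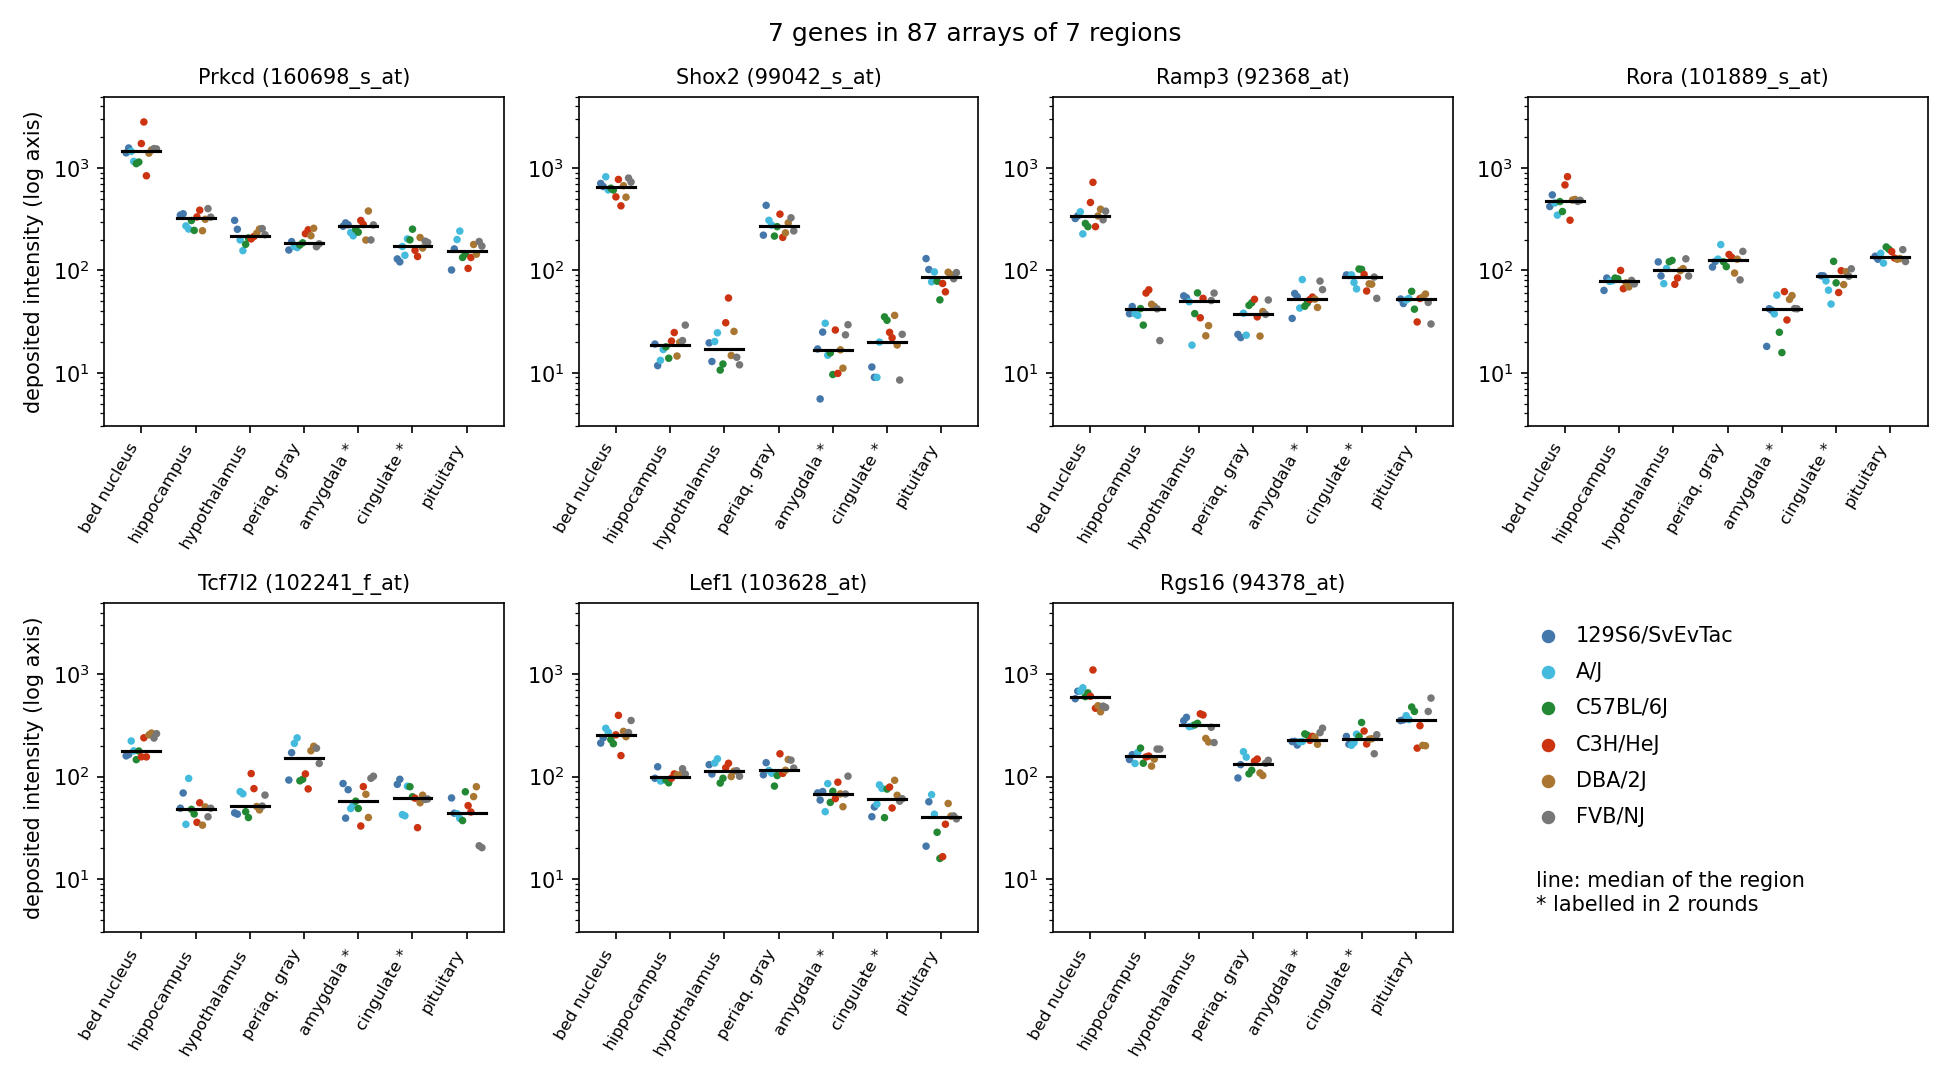
Deposited intensity (log axis) of 1 probe set for each of the 7 genes, the one with the highest mean, in 87 arrays of 7 regions; points are arrays coloured by strain, lines are region medians, and stars mark the regions labelled in 2 rounds. The bed nucleus has the highest median in all 7 panels, with the periaqueductal gray overlapping for Shox2, Tcf7l2 and Lef1 and the pituitary gland for Rgs16; 1 cingulate cortex array of Shox2, at 0.07, lies below the axis.

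Differences among the other regions did not enter the choice of the genes and were tested with limma. These comparisons share arrays with each other, so their values are given side by side. Shox2 99043_s_at and Tcf7l2 97660_s_at passed the filter on low values only through bed nucleus groups, and both are near background in most other regions. Against the hippocampus, 5 of the 12 tested probe sets passed in the hypothalamus, 3 higher and 2 lower, where 25% of all probe sets were called higher and 19.1% lower. Both Rgs16 probe sets were higher in the hypothalamus (0.91 ± 0.09, SE, for 94378_at, adjusted p = 5.37e-13) and Rora was higher by 0.30 ± 0.11 (adjusted p = 0.0264, and 0.066 after quantile normalization). Both Prkcd probe sets were lower in the hypothalamus, by -0.66 ± 0.10 for 104531_at (adjusted p = 4.46e-07) and -0.47 ± 0.10 for 160698_s_at. Among the arrays of a single chip lot the second Prkcd value was -0.26 (adjusted p = 0.101).

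In the periaqueductal gray against the hippocampus 8 of 12 passed, 5 higher and 3 lower, with 26.3% of all probe sets called higher and 24.3% lower. Shox2 was higher in the periaqueductal gray by 3.09 ± 0.12 (99042_s_at, adjusted p = 3.58e-28), and by 3.09 within a single chip lot. Tcf7l2 was higher by 1.27 ± 0.12 (102241_f_at, adjusted p = 2.92e-13) and Rora by 0.57 ± 0.11 (adjusted p = 3.55e-05), while both Prkcd probe sets were lower by 0.64 to 0.65 in size (-0.65 ± 0.10 for 104531_at). Rgs16 94378_at was lower by -0.27 ± 0.09 (adjusted p = 0.00851), a call that was lost with scan day as a block (adjusted p = 0.0658) or chip lot as a term (adjusted p = 0.327).

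The hypothalamus and the periaqueductal gray split the set in 2 ways. Here 6 of 12 passed, with both Rgs16 probe sets higher in the hypothalamus (1.17 ± 0.09 for 94378_at, adjusted p = 3.80e-16) and both probe sets of Shox2 and of Tcf7l2 higher in the periaqueductal gray (-3.04 ± 0.12 for 99042_s_at and -1.09 ± 0.12 for 102241_f_at). The Shox2 value depends on the added 16, since the hypothalamus median was 17.2, and Tcf7l2 97660_s_at had 11 of 12 hypothalamus arrays below 0 and was not called within 1 chip lot (adjusted p = 0.147). Of all probe sets 16.1% were called higher in the hypothalamus and 14.5% lower. Ramp3 and Lef1 passed in none of these 3 comparisons, with values for Ramp3 of 0.03 ± 0.12, -0.15 ± 0.12 and 0.17 ± 0.12 in the order given.

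Between the regions labelled in 2 rounds, 4 of 12 passed, with 17.4% of all probe sets higher in the amygdala and 17.2% lower. In 7 of 12 same-numbered pairs of arrays from the same strain the scan files name a shared animal, and with animal as a block the count was 4 as well. Prkcd was higher in the amygdala than in the cingulate cortex (0.70 ± 0.10 for 104531_at, adjusted p = 1.45e-07, and 0.55 ± 0.10 for 160698_s_at). Rora (-0.85 ± 0.11, adjusted p = 1.33e-08) and Ramp3 (-0.46 ± 0.11, adjusted p = 9.32e-04) were lower in the amygdala. Within a single chip lot of 8 arrays a region the Ramp3 value was -0.31 (adjusted p = 0.137).

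Array by array within the bed nucleus, the 7 genes stood furthest apart between replicates of C3H/HeJ. With the probe set of highest mean for each gene, replicate 2 of this strain was the highest of the 13 arrays for 5 of 7 genes and replicate 3 the lowest for 4 of 7. Prkcd 160698_s_at read 1734, 2819 and 840.0 in replicates 1, 2 and 3, and Ramp3 read 461, 725 and 267. Rora read 684, 823 and 309, Lef1 103628_at 256, 397 and 160, and Rgs16 94378_at 609, 1102 and 466. All 5 genes thus had replicate 2 on top and replicate 3 at the bottom of the strain, with replicate 1 between them. Shox2 99042_s_at (522, 774 and 427) kept that order, and Tcf7l2 102241_f_at read 156, 239 and 156.

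Replicate 2 exceeded replicate 3 in all 7 genes, by 0.57 to 1.73 with a median of 1.23 on the log2 scale. Over all 8460 tested probe sets the same difference had a median of 0.0009 and was above 0 for 4236. It was above 1 for 5 of the 7 genes and for 90 of the 8460 tested, or 1.06%. The pair was singled out by the values of these 7 genes, so a larger gap in them than over all probe sets is built in and is no test. The 2 arrays also differed in design: replicate 2 held 3 mice and replicate 3 held 2, and replicate 3 was scanned on another day and came from another chip lot, so pool, day and lot cannot be told apart for this pair. Replicates 1 and 2, of the same day and lot, differed in the same direction in 7 of 7 genes, by 0.26 to 0.84.

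Replicates of the other strains lay closer together. The largest shift there was in A/J, where replicate 2 was below replicate 1 in 6 of 7 genes (median -0.32), with Ramp3 at 374 and 227 and Prkcd at 1454 and 1160 for 160698_s_at and at 1347 and 795 for 104531_at. In 129S6/SvEvTac, C57BL/6J, DBA/2J and FVB/NJ the median difference of replicate 2 from replicate 1 was -0.06 to 0.16. DBA/2J replicates read 1304 and 1322 for Prkcd 104531_at, and 487 and 493 for Rora. The SD within strains over all 13 arrays was 0.56 for Prkcd 104531_at, larger than that of 98.9% of all tested probe sets, and 0.42 for both Ramp3 and Rora (96.0% and 95.9%), against a median of 0.19 over all tested. These values rested on C3H/HeJ: without its replicate 3 they were 0.29 for Prkcd 104531_at (84.2%), 0.29 for Ramp3 (83.3%) and 0.19 for Rora (55.9%). Rgs16 had 0.35 for 94378_at (90.2%) and 0.19 for 161609_at (52.7%), and Tcf7l2 had 0.21 for 102241_f_at (59.3%) and 0.94 for 97660_s_at (99.9%), the probe set with values around 0.

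**Figure D2:**
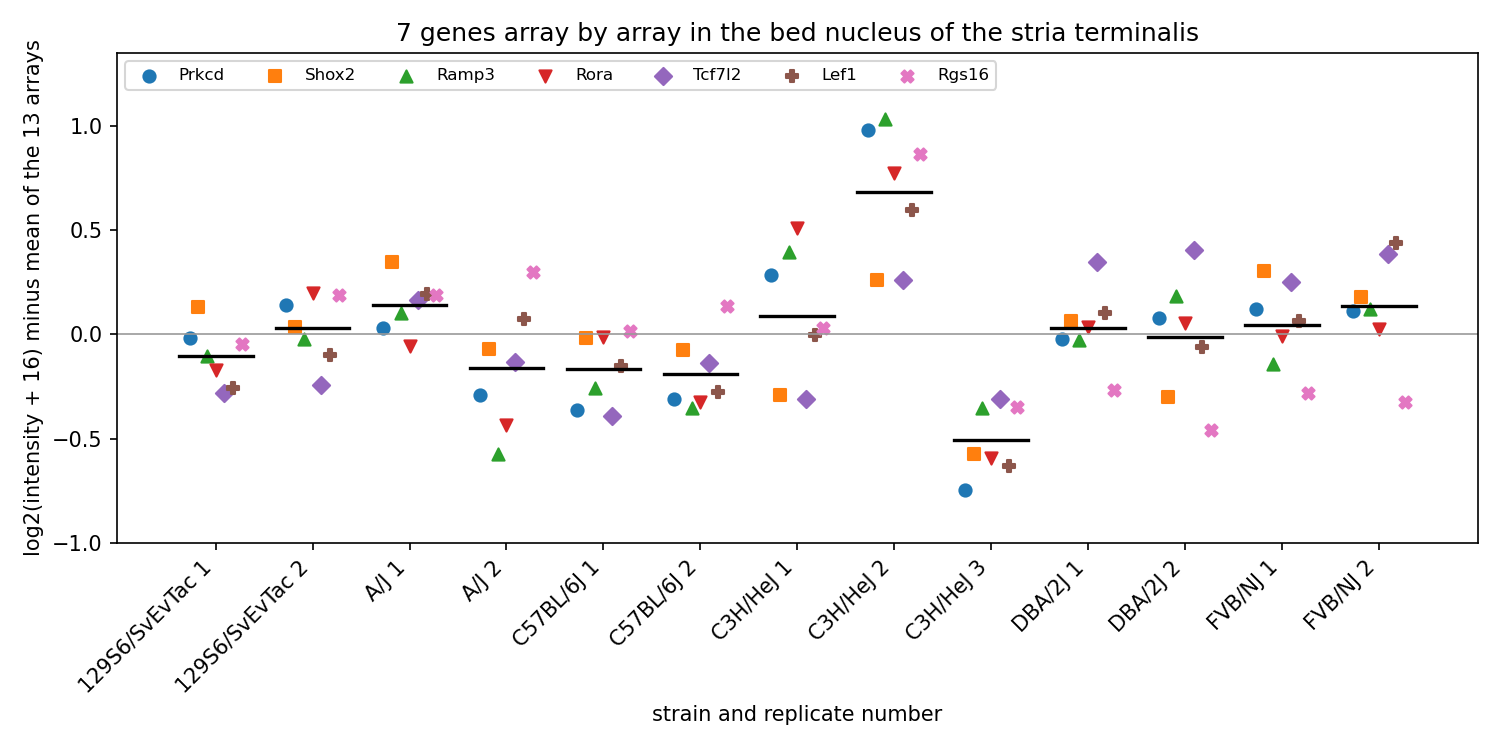
Deviation of 7 genes from their mean over the 13 bed nucleus arrays, in units of log2(intensity + 16), by strain and replicate; symbols are genes and black lines are the mean of the 7 genes on an array. C3H/HeJ replicate 2 has the highest mean (0.68) and C3H/HeJ replicate 3 the lowest (-0.51), and all 7 genes lie below 0 on the latter.

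Covariation over the 13 arrays was measured for the 21 pairs of genes, with permutation tests of 100000 resamples (two-sided) adjusted over the 21 pairs. Pearson's r was above 0 for 20 pairs, with a median of 0.47. Prkcd, Ramp3 and Rora formed the closest group: r was 0.91 for Prkcd with Rora (Spearman's rho 0.84, permutation p = 2.0e-05, adjusted p = 4.2e-04), 0.91 for Ramp3 with Rora (rho 0.87, adjusted p = 7.35e-04) and 0.90 for Prkcd with Ramp3 (rho 0.82, adjusted p = 0.00112). In all, 8 pairs passed by r and 3 by rho, and the 3 were these. Lef1 followed Prkcd with r = 0.80 (rho 0.57, adjusted p = 0.0121 by r and 0.151 by rho). Rgs16 and Tcf7l2 were the pair with the lowest r, at -0.17 (rho -0.18).

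Much of this covariation rested on C3H/HeJ replicates 2 and 3. Without both of them the median r over the 21 pairs was 0.16, only 13 pairs were above 0, and 3 pairs passed; without replicate 2 alone or replicate 3 alone 3 pairs passed as well, and 5 passed without 129S6/SvEvTac replicate 1 or without FVB/NJ replicate 2. The pairs of Prkcd, Ramp3 and Rora kept r values of 0.77 to 0.86 without C3H/HeJ replicates 2 and 3. For Prkcd with Rora and with Ramp3 these are also the 2 arrays farthest from the Prkcd median, and without the 2 arrays farthest from the Ramp3 median the r of Ramp3 with Rora was 0.82. Prkcd with Lef1 went from 0.80 to 0.37. After centring on strain means the median r was 0.81. The exact test within strains has only 192 arrangements, so its smallest possible p is 0.0052, which Ramp3 with Rora reached. A single pair at that p cannot pass after adjustment over the 21 pairs. No pair passed (0 of 21, smallest adjusted p = 0.109 in this exact test), and nothing is read from that count. Among the 6 arrays of 1 scan day and chip lot, which include C3H/HeJ replicates 1 and 2, the median r was 0.82, with a range of 0.14 to 0.98.

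Marker genes of the tissues that such a dissection could hold were read on the same arrays. Of 18 further genes listed for the thalamus only 7 were on the array with a probe set of their own, and 6 of the 7 were higher in the bed nucleus than in the mean of the 3 other brain regions (median difference 1.26, against -0.01 over all tested probe sets). Zic1, a zinc finger factor, stood 2.87 ± 0.14 higher (adjusted p = 3.19e-23), with a bed nucleus median of 1272 against 347 in the hypothalamus. Gbx2, a homeodomain factor that thalamic neurons need in development, stood 1.82 ± 0.10 higher (57.5 against at most 6.79 as the median of any other region). Tnnt1 (1.80 ± 0.10), Adarb1 (1.26 ± 0.06), Cacna1g (1.18 ± 0.09) and Calb2 (0.66 ± 0.09) were higher too, while Vamp1 was not called (-0.16 ± 0.14, adjusted p = 0.527). Calb2 was as bright in the hypothalamus and the periaqueductal gray (medians 976 and 951) as in the bed nucleus (912). This list was drawn up with results of these data known and is no independent check of the label.

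Genes of the labelled tissue were read too, from a list of 25 genes of the bed nucleus and the subpallium (the GABA-neuron part of the forebrain). This list was also chosen with earlier results of these data known and is no independent check of the label. Of the 16 that were tested 13 were higher in the bed nucleus than in the mean of the 3 other brain regions. Among all tested probe sets 7.52% were called higher. Of the list 1 was lower (Npy, -0.57 ± 0.10) and 2 were not called (Sst and Esr1), and its median difference was 0.65. Only 6 of the 13 had a higher median in the bed nucleus than in each of the 3 regions. In the thalamus list 5 of the 6 higher genes did, as did 5 of 6 in a choroid plexus list and 2 of 7 in a myelin list (both below). The lists were not compared by a test, and this count was not made over all probe sets, so nothing is read from it. Dlx1 was among the 6 of the bed nucleus and subpallium list by a narrow margin, with 186 against 180 in the hypothalamus. Dlx2 (88.8 against 94.4), Gal (335 against 538) and Isl1 (49.1 against 76.2) had lower medians in the bed nucleus than in the hypothalamus. Dlx1 (1.62 ± 0.09), Lhx8 (1.33 ± 0.14), Dlx2 (1.18 ± 0.08) and Lhx6 (0.85 ± 0.08), transcription factors of GABA and cholinergic neurons, had the largest differences from the mean of the 3 regions among transcription factors of the list. Dlx6 was not tested, and 8 others, Crh and Nkx2-1 among them, had no probe set of their own.

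Over the 13 arrays this list ran against the 7 genes, again through the C3H/HeJ arrays. Its mean deviation was lowest on C3H/HeJ replicate 2 (-0.41) and highest on replicate 3 (0.24), where the mean of the 7 genes was 0.68 and -0.51. Between these arrays Dlx1 differed by -1.34, Lhx8 by -1.41, Dlx2 by -1.29 and Penk, an opioid peptide gene, by -1.22 on the log2 scale, replicate 2 minus replicate 3. These were the most negative values of the list, and not all of its genes fell: Npy differed by -0.13, Sst by 0.06 and Esr1 by 0.06. Pearson's r of the list mean with the mean of the 7 genes was -0.82 (rho -0.42) over 13 arrays and -0.14 without these 2, given as a description. For the thalamus list it was 0.80 (rho 0.57) and 0.41. The mean of the thalamus list was 0.61 on C3H/HeJ replicate 2, its highest array, and -0.26 on replicate 3, while its lowest array was A/J replicate 2 (-0.41). The part of the tissue makeup in the values of the 7 genes was not tested.

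**Figure D3:**
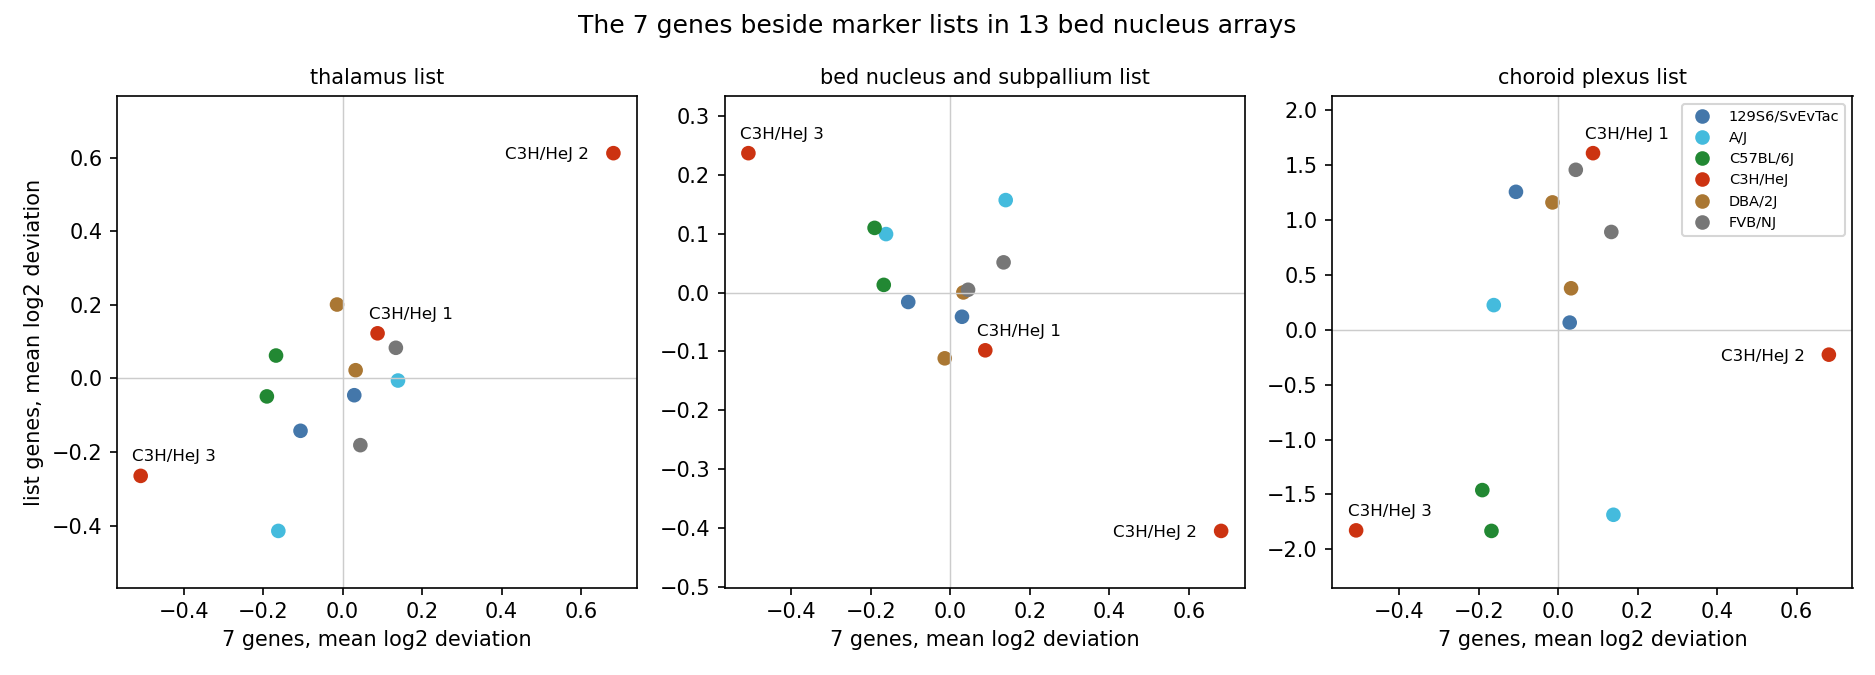
Mean log2 deviation from the 13-array mean of 3 marker lists (vertical axes: 7 thalamus genes, 16 bed nucleus and subpallium genes and 6 choroid plexus genes tested) against that of the 7 genes (horizontal axes), 1 point for each bed nucleus array, coloured by strain. C3H/HeJ replicate 2 lies at 0.61 in the thalamus list and at -0.41 in the bed nucleus and subpallium list, the far end of both.

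Lists for other tissues around the bed nucleus were read the same way. Higher and lower again refer to the mean of the 3 other brain regions, where 7.52% of all tested probe sets were called higher and 7.4% lower. All 6 tested choroid plexus genes were higher in the bed nucleus than in that mean (median 1.44). They were led by Ttr, the thyroxine carrier of that tissue, at 24.97 to 4350 with a median of 1643. Igf2 of this list had a lower median in the bed nucleus than in the hypothalamus (506 against 817). The mean of this list varied more than any other tested list between arrays (-1.83 to 1.61), and its r with the 7 genes was 0.30. Tac2, the only gene of the 7 listed for the habenula with a probe set of its own, had medians of 289 in the bed nucleus and 286 in the hypothalamus and an r of -0.76 with the 7 genes (-0.19 without C3H/HeJ replicates 2 and 3). Of 11 tested hypothalamus genes 4 were higher and 1 lower than the mean of the 3 regions, among the higher Oxt and Avp, hormone genes whose medians were 2586 and 758 in the bed nucleus and 3439 and 3878 in the hypothalamus. Myelin genes were higher in 7 of 8 (median 0.43) and striatum genes in 2 of 4. Astrocyte genes were higher in 1 of 9 with 2 lower, and hippocampus genes in 1 of 11 with 6 lower, while 7 of 9 midbrain genes were lower. A median above that of each of the 3 regions was found for only 2 of the 7 higher myelin genes. The same held for 1 of the 2 higher striatum genes and 0 of the 4 higher hypothalamus genes. RNA quality was read from Gapdh: its 3′ probe set over its 5′ probe set, as a log2 ratio, was -0.20 to 0.07 on the 13 arrays and stood at -0.15 and -0.002 on C3H/HeJ replicates 2 and 3.

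Strain differences in the bed nucleus were called for 1 of the 12 tested probe sets in the F test over 6 strains, where 11.1% of all tested probe sets were called. That probe set was Tcf7l2 97660_s_at (F = 11.9, adjusted p = 8.51e-06), and the other 11 were not called. It passed the filter on low values only through the bed nucleus groups of DBA/2J and FVB/NJ, 2 of 42 groups, so its call is no support for a strain difference of these genes (without the filter the adjusted p was 1.94e-05). It read 86.8 and 123 in DBA/2J and 66.4 and 86.0 in FVB/NJ, but -7.56 and -7.55 in C57BL/6J. C3H/HeJ (48.6, -6.21 and 22.3), 129S6/SvEvTac (9.05 and 18.9) and A/J (93.6 and -11.4) lay between, and the replicates of A/J were further apart than those of any other strain. Because values below 0 were set to 0, part of this spread is set by the floor. The brighter Tcf7l2 probe set, 102241_f_at, was not called (F = 1.90, adjusted p = 0.316), with 256 and 267 in DBA/2J, 238 and 263 in FVB/NJ and 147 to 239 in the other strains. Rgs16 missed the threshold with both probe sets (adjusted p = 0.104 for 94378_at and 0.0945 for 161609_at), with 430 to 493 in DBA/2J and FVB/NJ and 466 to 1102 in the other strains for 94378_at.

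Without C3H/HeJ replicate 3 the count was 5 of 12, where 1044 of all 8466 probe sets tested in that fit were called. Beside Tcf7l2 97660_s_at both of Prkcd (adjusted p = 2.17e-04 for 104531_at and 0.0099 for 160698_s_at), Ramp3 (0.0399) and Rgs16 94378_at (0.0094) were called. C3H/HeJ replicates 1 and 2, left alone, are the 2 highest of all arrays for Prkcd and Ramp3. With chip lot as a term, or among the 6 arrays of 1 lot, none of the 12 was called (Tcf7l2 97660_s_at at adjusted p = 0.123 and 0.486), nor was it called in a fit of the 13 bed nucleus arrays alone (0.143). Scan day and lot went with strain to a large degree: 6 arrays of 129S6/SvEvTac, C57BL/6J and C3H/HeJ shared 1 day and lot, and all arrays of A/J, DBA/2J and FVB/NJ were on other days and lots.

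Tcf7l2 is also given by chip lot, where lots held different strains, so that lot and strain cannot be told apart in the medians. In the bed nucleus 102241_f_at had a median of 162 on 6 arrays of the most used lot and 238 on 7 arrays of other lots. The medians were 41.8 and 62.3 in the hippocampus, 45.4 and 71.4 in the hypothalamus and 93.4 and 184 in the periaqueductal gray. In the hypothalamus the lots did not overlap (39.8 to 51.6 against 65.98 to 107), but they did in the bed nucleus, the hippocampus and the periaqueductal gray (in the last, 90.98 to 171 against 75.8 to 239). Within C3H/HeJ, bed nucleus replicates 1 and 2 of the most used lot read 156 and 239, and replicate 3 of another lot read 156. The part of the lot in the strain values of Tcf7l2 was not tested apart from the fits above.

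**Figure D4:**
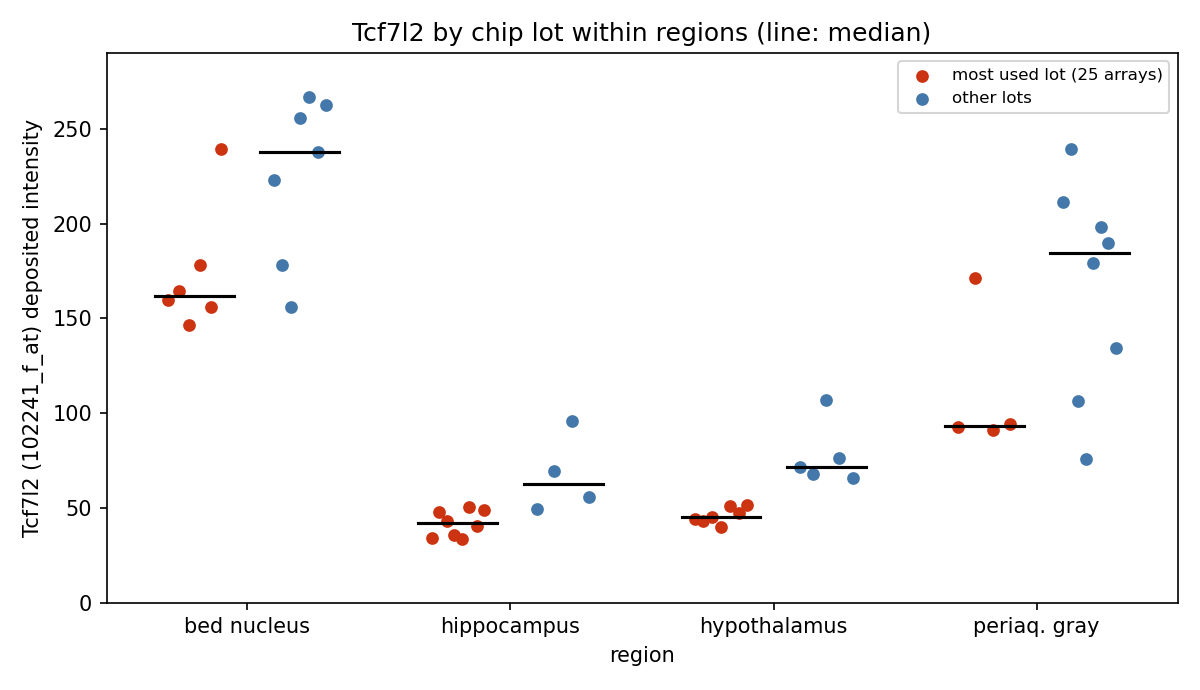
Deposited intensity of Tcf7l2 102241_f_at in 4 regions, split by chip lot (red, the most used lot, with 25 of these arrays; blue, all other lots); points are arrays and lines medians. The median of the red points is lower in each of the 4 regions, as in the bed nucleus with 162 against 238.

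Whether strain differences in the bed nucleus departed from those in the 3 other brain regions was tested as an interaction. Again 1 of 12 passed, Tcf7l2 97660_s_at (F = 6.64, adjusted p = 0.0354), where 0.39% of all tested probe sets passed. The test asks about the same DBA/2J and FVB/NJ bed nucleus groups that let this probe set through the filter, and the call was lost without the filter (adjusted p = 0.0519), with scan day as a block (0.194) and with chip lot as a term (0.174). It was also lost without any 1 of 5 arrays: 129S6/SvEvTac replicate 1 (adjusted p = 0.0515), C57BL/6J replicate 1 (0.0846) or 2 (0.116) and DBA/2J replicate 1 (0.0520) or 2 (0.124). Averaged over all 7 regions, strain differences were called for 3 of 12, against 37.7% of all: Rgs16 94378_at (F = 6.58, adjusted p = 5.85e-04), Tcf7l2 97660_s_at (F = 3.995, adjusted p = 0.0145) and Lef1 103628_at (F = 3.13, adjusted p = 0.0428). The average includes the bed nucleus groups of DBA/2J and FVB/NJ that let Tcf7l2 97660_s_at through the filter. Its call is therefore no support for a strain difference. With scan day as a block or chip lot as a term, only Rgs16 was still called (adjusted p = 0.00642 and 0.0477), with Tcf7l2 at 0.147 and 0.230 and Lef1 at 0.094 and 0.167. Of the 12 pituitary arrays 4 did not match their strain label: over the 500 probe sets with the largest strain F in the other regions, both arrays labelled C3H/HeJ correlated best with the FVB/NJ profile (r = 0.78) and both labelled FVB/NJ with the C3H/HeJ profile (r = 0.76). Without the pituitary gland Lef1 was not called (adjusted p = 0.115).

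Pool size was tested among the 13 bed nucleus arrays with strain in the fit. None of the 12 probe sets differed between arrays of 3 and of 2 mice in limma (0 at an adjusted and 0 at an unadjusted p below 0.05), and 0% of all tested probe sets were called (920 of 8460 at an unadjusted p). The difference was 0.25 ± 0.22 for Prkcd 160698_s_at, 0.25 ± 0.15 for Rgs16 94378_at and -0.02 ± 0.14 for Shox2 99042_s_at. With an error like that of Prkcd 160698_s_at a difference like the median one between the A/J replicates (-0.32) could not have been told from 0. Errors were smaller for some other probe sets, as for Rgs16 161609_at (-0.11 ± 0.10).

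Genes that followed the mean of the 7 genes over the 13 arrays were ranked among 7619 tested probe sets with 1 symbol that are no members. The highest r values were those of Ttc7b (0.93), Rap1gds1 (0.92), Adcy8 (0.90), Adarb1 (0.90), Tiam1 (0.88), Ldhb (0.88), Bok (0.87), Patj (0.87), Dio2 (0.86) and Tspan33 (0.86), and 3 of the 7619 were above 0.9. Without C3H/HeJ replicates 2 and 3 these 10 had r values of 0.63 to 0.86. Rap1gds1, an exchange factor for small G proteins, read 1199 to 2549 with a median of 1522, and Adarb1, an RNA-editing enzyme, read 593 to 1412 with a probe set other than the one given above. Dio2, the enzyme that activates thyroid hormone, followed the 7 genes over arrays although its bed nucleus median of 89.4 was below that of the hippocampus (234). The lowest r values were those of Kmt2a (-0.91), Ahi1 (-0.90), Ube2w (-0.89), Pias1 (-0.88) and Ptcd3 (-0.88).

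Over the 30 means of strain and region labelled in 1 round, a different set came first: Gbx2 (0.94), Rgs3 (0.91), Wnt3 (0.91), Fhdc1 (0.89), Grk5 (0.87), Kitl (0.87), Adarb1 (0.83) and Avpi1 (0.83). Each of these genes had its highest median of all 7 regions in the bed nucleus, Gbx2 at 57.5 and Wnt3 at 134. For Kitl the margin was narrow (319.2 against 318.7 in the amygdala). Only Adarb1 was in both rankings. The 7 genes were chosen for high levels in the bed nucleus, so a ranking over region means favours genes high there by construction. Over the bed nucleus arrays alone, r was 0.57 for Gbx2, 0.80 for Rgs3 and 0.84 for Wnt3. Without C3H/HeJ replicates 2 and 3 these values were 0.12, 0.10 and 0.40. Across all genes named for the region means they then ran from -0.21 (Grk5) to 0.64 (Adarb1). All these correlations are descriptions over arrays that share animals and lots.

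Tcf7l2 and Lef1 act in the Wnt pathway. Of 34 other tested genes of the Wnt and TCF/LEF pathway 3 were higher and 5 lower in the bed nucleus than in the 3 other brain regions, with a median of -0.03, and 3 of 34 is near the 7.52% called higher among all tested probe sets. The members called are named without reading a change of the pathway from them. Wnt3, a ligand, was higher by 1.25 ± 0.08 (adjusted p = 1.52e-17), Wnt4 by 1.10 ± 0.13 and Ctnnb1, which encodes beta-catenin, by 0.34 ± 0.04. The secreted modulators Dkk3 (-1.34 ± 0.06) and Frzb (-0.86 ± 0.11) were lower, with Dkk3 at a median of 88.5 against 796 in the hippocampus. Among 21 tested relatives of the 7 genes 6 were higher and 5 lower, with a median of 0.03. The protein kinase C gene Prkch (1.56 ± 0.09) and the G protein regulators Rgs3 (1.23 ± 0.07), Rgs4 (0.99 ± 0.10) and Rgs8 (0.41 ± 0.07) were higher, while Ramp1 (-0.38 ± 0.05) and Ramp2 (-0.30 ± 0.08) were lower than in the 3 other regions.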

How the data were processed

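RNA was measured on Affymetrix MG_U74Av2 arrays from pools of 1 to 5 mice, extracted with Trizol per the labels' protocols. The authors deposited a matrix of intensity values on a linear scale, with 6.33% below 0, and a scan file for each array, whose deposited text fields (unit other) gave scan day, chip lot and animals named. For these intensity values the software and the scaling were not given in the sources used here. Negative values were raised to 0 before log2(intensity + 16) was computed. Of 12488 probe sets 66 controls were left out, and 8460 with a highest group mean above the median of all values (intensity 55.4) were tested. Symbols came from the platform annotation, updated by gene identifier to RefSeq (GRCm38.p6): 10833 probe sets had 1 symbol, 396 several and 1193 none.

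Groups followed the titles. One fit in limma 3.58.1 (R 4.3.3, statmod 1.5.0) gave each of 42 groups a mean, and the Benjamini-Hochberg adjustment ran over all tested probe sets. A call is an adjusted p below 0.05 with no minimum fold. Errors are SE from limma. For a gene with 2 probe sets the one with the highest mean stood for it in pairs and rankings. Named genes beside the 7 were up to 4 of each list (thalamus list 8) with the largest difference of the bed nucleus, and the 10 highest and 5 lowest by r over arrays and 8 highest over group means; Ctnnb1, Penk, Npy, Esr1, Sst, Ramp1 and Ramp2 were named after their values were seen. The members, the lists and the tests were chosen with earlier results of these data known. The fit was tested on simulated data. Alternatives were a pseudocount of 32, quantile and upper quartile scaling, no filter, scan day, animal or replicate number as a block, chip lot, and arrays left out, of which those by chip lot, animal as a block between regions, those without FVB/NJ arrays and those without both C3H/HeJ replicates 2 and 3 were chosen after seeing the data. Pairs of genes, rankings and promoter searches used Python 3.11.15 with pandas 2.3.3, numpy 2.4.6 and scipy 1.17.1. The number of arrays limits the precision.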

Additional observations from a re-analysis of the deposited data

Results flagged for a closer look

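Tcf7l2 97660_s_at differed between groups in its strain pattern, with F = 6.64 for strain differences in the bed nucleus against the mean of the 3 other brain regions (limma, adjusted p = 0.0354). The difference was tested as an interaction, on a probe set whose bed nucleus values ran from -11.4 to 123 and lay below 0 on 4 of 13 arrays. These values come from the groups through which the probe set passed the filter, and the call was lost without the filter (adjusted p = 0.0519), with scan day as a block (0.194), with chip lot as a term (0.174) and without any 1 of 5 bed nucleus arrays (0.0515 to 0.124).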

How the results depend on the processing

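Counts of called probe sets among the 12 were recomputed under each alternative. For strain differences in the bed nucleus the count of 1 became 2 with a pseudocount of 32 or with quantile normalization, 0 in the 13 bed nucleus arrays alone, 0 with chip lot as a term and 0 in 1 chip lot; leaving out arrays gave 0 to 5. For its difference from the 3 other regions the count of 1 became 0 without the filter on low values, 0 with scan day as a block and 0 with chip lot as a term; leaving out arrays gave 0 to 1. For strain over all regions the count of 3 became 1 with scan day as a block and 1 with chip lot as a term; leaving out replicates gave 0 to 3. Leaving out replicates gave 2 to 5 for hypothalamus against hippocampus, 4 to 8 for periaqueductal gray against hippocampus and 0 to 4 for amygdala against cingulate cortex; these fits leave most groups with 1 sample, which is assumed to vary like the other groups. The 8 pairs that passed became 4 after quantile normalization and 3 without C3H/HeJ replicates 2 and 3, and leaving out single arrays gave 3 to 9. After centring on strain means the count was 0, in an exact test where a single pair could not pass by itself. The pool size count was 0 in all 19 alternatives, and no direction was reversed. With the replicate block every count was the same (1, 1, 3, 5, 8, 6 and 4). Scan files name a shared animal for 8 of 12 same-numbered bed nucleus and periaqueductal gray pairs and for 7 of 12 amygdala and cingulate cortex pairs, not for all, and within the bed nucleus number 1 goes with 2 mice and number 2 with 3; replicate 2 minus replicate 1 correlated between its strains at -0.26 to 0.30. With animal as a block the 5 counts run (strain over all regions and the 4 between regions) were the same. Over all tested values of single probe sets, 57 alternatives lost a call and 13 gained one. Signal limits both near-background probe sets, Rora 101888_at and Tcf7l2 97660_s_at.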
